A study of Mus musculus with 8 samples.

Results

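Transcripts of 9 genes for ion and lactate transport in the retinal pigment epithelium (RPE) were compared between knockout mice for Bbs8 (Bbs8-/-) and wild type littermates (Bbs8+/+). The members were taken by name from a list of channels, pumps and lactate carriers of the mature RPE, by a rule that uses no measured value, and they are 9 of the 31053 genes counted. They are the channel genes Best1, Kcnj13 and Clcn2, the lactate transport genes Slc16a1, Slc16a8 and Bsg, and the pump and exchanger genes Atp1b1, Slc12a2 and Slc4a2. RNA came from eyecups of untreated C57/Bl6 mice at postnatal day 11 (P11), with 4 libraries of each genotype and each animal counted as a biological replicate in the methods. Bbs8 was deleted in every tissue of the animal, the retina included. An eyecup here was the eye after removal of muscle, fat, cornea, lens, retina and optic nerve, so that choroid and sclera were part of each sample. In such bulk samples fewer cells of a type and less RNA per cell cannot be told apart.

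The RPE is a pigmented epithelial layer that moves ions, water and lactate from the photoreceptor side to the choroidal blood supply. Its sodium pump sits on the apical membrane, facing the photoreceptors, together with the potassium channel Kir7.1, which returns potassium to the space around the outer segments, and the cotransporter NKCC1, which loads the cell with chloride. Chloride leaves through basolateral channels and exchangers with water following, and lactate released by the retina enters through MCT1 at the apical side and leaves through MCT3 at the basolateral side.

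The promoters are shown because the transcript of Otx2, an RPE transcription factor, rose in Bbs8-/- eyecups and that of Mitf, which encodes another, fell in the same libraries, from 268 ± 27.8 to 208 ± 21.2 CPM (counts scaled to a common library total, SD, n = 4 each, edgeR FDR = 0.00067). Mitf was chosen after its values were seen. The pigment cell markers Tyrp1, Dct, Pmel and Mlana also fell in these samples, which held choroid. Whether Mitf fell in the RPE or in other cells was not tested. Letters read by these factors were searched on both strands in the 250 bases before each RefSeq start (build GRCm38.p6). TAATCC, read by Otx2, occurred in 6.25% of 32851 such windows, CACGTG, read by Mitf, in 6.02% and CATGTG, also read by Mitf, in 12.3%. A window was found for 7 of the 9 members, and the 3 that held a match are given with the match in capitals. The share of all windows with any of these letters was not counted, so nothing is drawn from that number of members. The match lies at position -227 from the start in Best1 (chr19:10001634-10001883, minus strand), at -112 in Kcnj13 (chr1:87394730-87394979, minus strand) as CACATG, the reverse complement of CATGTG, and at -200 in Slc16a1 (chr3:104638414-104638663, plus strand), with the base before the start counted as -1.
Best1: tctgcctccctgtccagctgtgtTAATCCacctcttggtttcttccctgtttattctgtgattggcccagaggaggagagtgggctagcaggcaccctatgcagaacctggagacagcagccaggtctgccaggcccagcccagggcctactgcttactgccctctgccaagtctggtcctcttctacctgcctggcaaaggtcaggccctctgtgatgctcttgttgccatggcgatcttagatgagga
Kcnj13: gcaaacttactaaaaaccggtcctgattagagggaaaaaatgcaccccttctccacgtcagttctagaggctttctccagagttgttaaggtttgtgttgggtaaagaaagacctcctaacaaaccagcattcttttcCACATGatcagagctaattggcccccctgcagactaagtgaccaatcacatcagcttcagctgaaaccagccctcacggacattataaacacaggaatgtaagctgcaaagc
Slc16a1: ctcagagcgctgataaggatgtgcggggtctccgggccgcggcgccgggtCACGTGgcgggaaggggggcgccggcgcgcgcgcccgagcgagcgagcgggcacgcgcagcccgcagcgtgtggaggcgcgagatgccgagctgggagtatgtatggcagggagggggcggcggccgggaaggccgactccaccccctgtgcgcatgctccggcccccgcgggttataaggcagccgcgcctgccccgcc
These letters were not in the windows of Slc16a8, Clcn2, Atp1b1 and Slc4a2, the last searched at both of its starts. A match is a description of the sequence. Binding was not measured, and an effect of either factor on the members was not tested.

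The libraries held 1636725 to 2884983 gene counts, so 3 counts, taken as the smallest level the depth could show, stood for 1.04 to 1.83 CPM. Ttc8, the annotation's symbol for Bbs8, lay at 14.6 to 21.6 CPM in Bbs8+/+ against 2.29 to 9.70 CPM in Bbs8-/-, with a log2 difference of -1.95 (edgeR FDR = 2.74e-06). RPE markers other than the members were abundant in every library, with a summed level of 18164 to 19290 CPM in Bbs8+/+ against 19774 to 20151 CPM in Bbs8-/-, most of it from Ttr (10937 and 11657 CPM on average). Of the 12 only Otx2 passed the test, from 554 ± 11.6 to 771 ± 21.9 CPM (SD, n = 4 each), and the log2 difference was above 0 for 8 of them, with Rpe65 (-0.13) among the 4 below 0. Other marker lists also moved with genotype. Fibroblast markers summed to 34135 to 35885 CPM in Bbs8+/+ against 26774 to 27956 CPM in Bbs8-/-. The collagen genes Col1a1, Col1a2 and Col3a1 among the 6 fell, while Dcn was higher in all 4 Bbs8-/- libraries without passing the test (log2 difference 0.09, edgeR FDR = 0.174). Pigment cell markers (Tyrp1, Dct, Pmel and Mlana fell) summed to 13612 to 14282 and 11299 to 11846 CPM. Lens markers (Cryaa, Cryba1 and Crygs rose, and Cryba4 was called higher after passing the filter only through the Bbs8-/- libraries) summed to 202 to 223 and 315 to 336 CPM, while Cryab, with the most counts of the list, had a log2 difference of -0.15 (edgeR FDR = 0.484). Photoreceptor markers summed to 472 to 522 and 355 to 435 CPM, Gnat1 being among those that fell, while the log2 difference was above 0 for 2 of the 10, Rom1 (0.30, edgeR FDR = 0.247) and Nrl (0.51, FDR = 0.340). Erythroid markers (Hba-a1 and Hba-a2 rose) summed to 5153 to 5721 and 5632 to 6488 CPM and skeletal muscle markers (Tnnc2 rose, and the log2 differences of Ckm and Atp2a1 were -0.14 and -0.06) to 1669 to 1850 and 1791 to 2034 CPM, while no marker of retinal neurons and glia passed the test (922 to 962 and 867 to 924 CPM). Endothelial markers summed to 912 to 958 and 922 to 1006 CPM, and of the 8 Egfl7 rose, while Flt1 (log2 difference -0.25, edgeR FDR = 0.133) and Cdh5 (-0.31, FDR = 0.335) were lower on average without passing the test. Ttr, Dcn, Cryab, Rom1, Nrl, Ckm, Atp2a1, Flt1 and Cdh5 were named after their values were seen. No marker was at 0 in all libraries, and the part of these tissues in the results below was not tested.

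None of the 9 transport genes passed FDR 0.05 in either direction in the edgeR quasi-likelihood test, against 2.24% of the 13813 genes tested (1.1% higher and 1.14% lower in Bbs8-/-). All 9 members passed the filter on low counts, Best1 only through the Bbs8-/- libraries, as given with that gene. An unadjusted p under 0.05 was reached by 3 of the 9, Kcnj13, Clcn2 and Slc16a8, against 13.0% of all genes, and no member had separate ranges in the 2 genotypes, against 7.38% of all genes. The log2 difference was above 0 for 6 of the 9 (5 of the 8 other than Best1) and for 49.5% of all genes, and its median was 0.04 over the 8 other than Best1 and -0.0041 over all genes. The likelihood ratio test of edgeR and the Wald test of DESeq2 also called 0 members. A missing call does not show equal levels, and the interval of each difference is given with the gene.

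**Figure D1:**
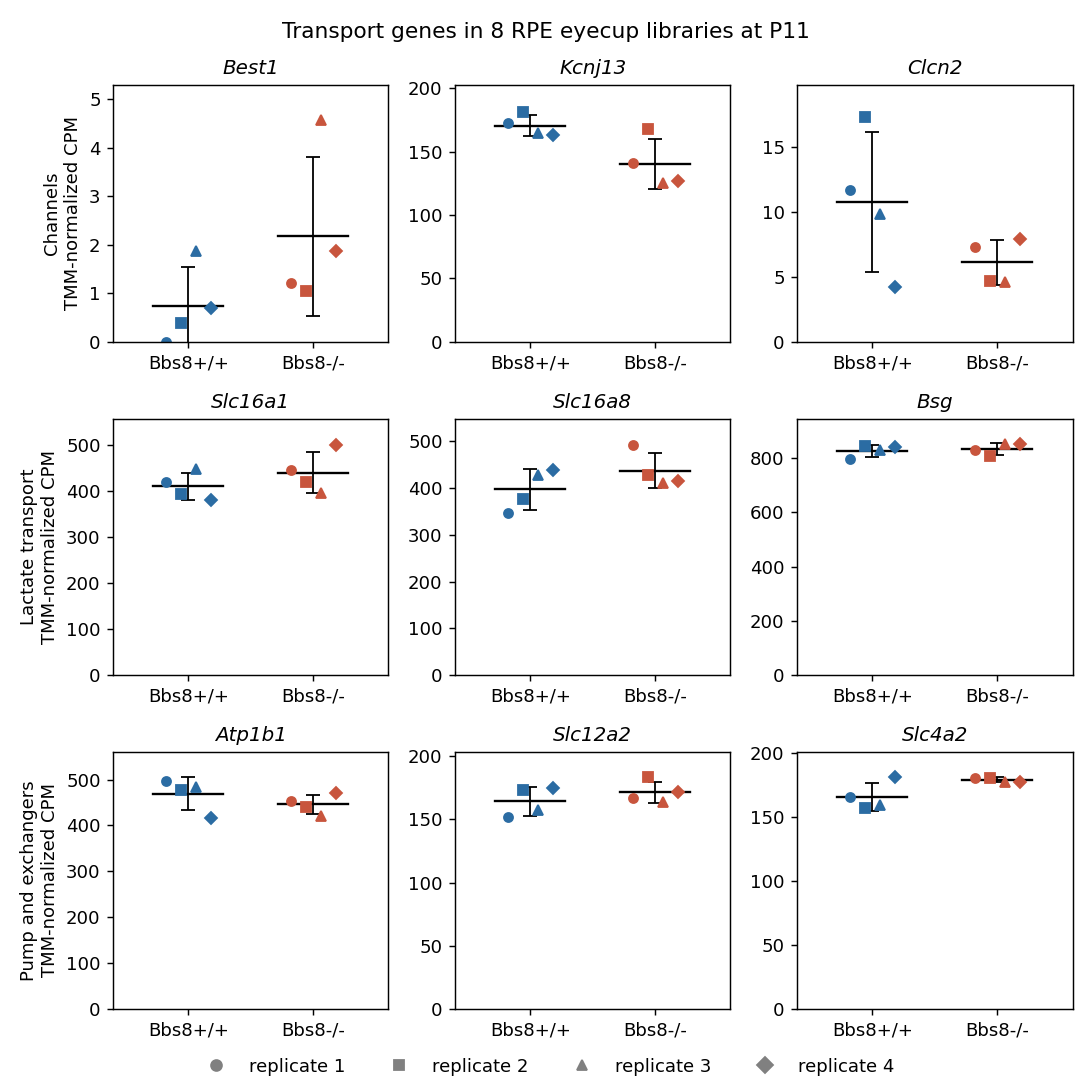
Level of each transport gene in TMM-normalized CPM (vertical axes, each starting at 0) in 4 Bbs8+/+ (blue) and 4 Bbs8-/- (red) eyecup libraries at P11, with a symbol for each replicate, a line at the mean and bars of 1 SD (the lower bar of Best1 in Bbs8+/+ is clipped at 0). The ranges of the genotypes overlap for all 9 genes, and for Kcnj13 3 Bbs8-/- libraries lie below all Bbs8+/+ libraries.

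Kcnj13 encodes Kir7.1, the inwardly rectifying potassium channel of the apical RPE membrane, and had the smallest p of the 9 genes. Its level was 172, 181, 165 and 163 CPM in Bbs8+/+ replicates 1 to 4. In Bbs8-/- replicates 1 to 4 it was 141, 168, 126 and 127 CPM. Replicates 1, 3 and 4 of Bbs8-/- were thus lower than every Bbs8+/+ library, while replicate 2 lay within the Bbs8+/+ range. The mean was 170 ± 8.31 CPM in Bbs8+/+ against 140 ± 19.5 CPM in Bbs8-/- (SD, n = 4 each), a log2 difference of -0.28 (SE 0.0885, 95% interval -0.46 to -0.11) or a fold of 0.821. This missed the threshold across all genes in the edgeR quasi-likelihood test (FDR = 0.0640).

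The call on Kcnj13 turned on a single library. Without Bbs8-/- replicate 2 the log2 difference was -0.38 with an edgeR FDR of 0.0112. Leaving out any other library gave a log2 difference between -0.30 and -0.23, with no call (edgeR FDR 0.0650 to 0.277). With libraries scaled to the RPE markers in place of all genes, an alternative chosen after seeing the data, the log2 difference was -0.36 and the edgeR FDR 0.00566. That scaling also moved the median log2 difference of all genes to -0.08 and the split of calls over all genes from 152 higher and 157 lower to 89 higher and 337 lower. The markers used for it include Otx2, which was itself called higher in Bbs8-/- (log2 difference 0.48), and a scaling without Otx2 was not run. Per 100 counts of Rpe65, the visual cycle isomerase of the RPE, there were 8.54 ± 0.621 Kcnj13 counts in Bbs8+/+ against 7.67 ± 0.812 in Bbs8-/- (SD, n = 4 each), and 2 Bbs8-/- libraries were below all Bbs8+/+ libraries. Per 100 counts of Slc16a8, the gene of the carrier MCT3, there were 43.4 ± 6.50 against 32.3 ± 4.67, with 3 Bbs8-/- libraries below all Bbs8+/+ libraries. Slc16a8 itself was higher on average in Bbs8-/- without passing the test. Rpe65 was 1998 ± 98.4 CPM in Bbs8+/+ against 1824 ± 81.5 CPM in Bbs8-/- (edgeR FDR = 0.0843).

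The Kcnj13 gene (ENSMUSG00000079436, chr1:87386363-87394729 in mm10, minus strand) lies wholly inside Gigyf2, a gene of the opposite strand, and 623 of its bases are exonic in both. The strand setting of the counting is not given in the sources used here, so reads of the pair may not be separable. Gigyf2 was 148 ± 9.66 CPM in Bbs8+/+ against 155 ± 12.9 CPM in Bbs8-/- (SD, n = 4 each), with a log2 difference of 0.07 (edgeR FDR = 0.831).

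Clcn2 encodes ClC-2, a voltage-gated chloride channel of epithelia, and was read at low counts (152 over the 8 libraries). It stood at 11.6, 17.3, 9.81 and 4.19 CPM in Bbs8+/+ replicates 1 to 4. The Bbs8-/- values were 7.28, 4.70, 4.59 and 7.94 CPM. The Bbs8+/+ libraries were widely spread and their lowest, replicate 4, was below all Bbs8-/- libraries, so the ranges overlapped in full. Means were 10.7 ± 5.40 CPM in Bbs8+/+ against 6.12 ± 1.73 CPM in Bbs8-/- (SD, n = 4 each), with a log2 difference of -0.80 (SE 0.355, 95% interval -1.50 to -0.10) that did not pass the edgeR test (FDR = 0.296). The size of the difference moved with single libraries, to -0.45 without Bbs8+/+ replicate 2 and to -1.08 without Bbs8+/+ replicate 4, and no library left out led to a call. Clcn2 (ENSMUSG00000022843, chr16:20702964-20717746, minus strand) shares 85 exonic bases at its 3′ end with Fam131a on the opposite strand, which was 3.53 ± 1.81 and 1.99 ± 1.27 CPM in the 2 genotypes. At its other end it shares 82 exonic bases with Polr2h (5.58 ± 2.09 and 3.63 ± 1.24 CPM).

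Best1 encodes bestrophin 1, a calcium-activated chloride channel of the basolateral RPE membrane, and was close to the limit of detection at P11. Bbs8+/+ replicates 1 to 4 held 0, 1, 4 and 2 of its reads, and Bbs8-/- replicates 1 to 4 held 2, 2, 10 and 4, which makes 25 counts in all. In CPM this was 0.740 ± 0.805 in Bbs8+/+ against 2.18 ± 1.64 in Bbs8-/- (SD, n = 4 each). Replicate 3 was the highest library of each genotype, and Bbs8-/- replicate 3 was the only one above every Bbs8+/+ library. The log2 difference was 1.57 (SE 0.853, 95% interval -0.12 to 3.26, edgeR FDR = 0.441), and it was 0.91 without Bbs8-/- replicate 3 and 2.38 without Bbs8+/+ replicate 3. The filter asks for 1 CPM in 4 libraries, which Best1 reached in all 4 Bbs8-/- libraries but in 1 Bbs8+/+ library, so it was tested only through the group in which it was higher, and nothing is drawn from the sign of its difference. With no more than 10 counts in any library, the interval of the difference reaches from a fold of 0.921 to a fold of 9.55. The near absence of Best1 reads stood beside 1743 CPM or more of Rpe65 in every library, and its cause was not tested. Best1 (ENSMUSG00000037418, chr19:9985174-10001633, minus strand) ends 75 bases from the end of Fth1, the ferritin heavy chain gene of the opposite strand, which was 338 ± 31.9 CPM in Bbs8+/+ against 348 ± 26.8 CPM in Bbs8-/- (edgeR FDR = 0.892). Rab3il1, 35 bases from its other end, was 19.6 ± 6.43 and 22.7 ± 3.63 CPM.

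Slc16a8 encodes MCT3, the basolateral lactate carrier typical of the RPE. It was measured at 346, 377, 428 and 438 CPM in Bbs8+/+ replicates 1 to 4. In Bbs8-/- replicates 1 to 4 it was measured at 491, 428, 410 and 415 CPM. Bbs8-/- replicate 1 was above all Bbs8+/+ libraries. The other 3 lay above Bbs8+/+ replicates 1 and 2 and below Bbs8+/+ replicates 3 and 4. From 397 ± 43.8 CPM in Bbs8+/+ to 436 ± 37.3 CPM in Bbs8-/- (SD, n = 4 each), the log2 difference was 0.13 (SE 0.0649, 95% interval 0.0022 to 0.26) and did not pass the edgeR test (FDR = 0.375). The upper end of the interval is a fold of 1.20. Single libraries moved the difference, to 0.07 without Bbs8+/+ replicate 1, to 0.08 without Bbs8-/- replicate 1 and to 0.19 without Bbs8+/+ replicate 4, and it was 0.05 when scaled to the RPE markers. Its unadjusted p was under 0.05 in 9 of the 18 alternatives. Slc16a8 (ENSMUSG00000032988, chr15:79251014-79254761, minus strand) lies inside Gm49486 of the opposite strand with no exonic base in common, and Gm49486 was 6.79 ± 2.64 CPM in Bbs8+/+ against 2.72 ± 1.40 CPM in Bbs8-/- (edgeR FDR = 0.191). Pick1, 1529 bases away, was 28.4 ± 10.9 and 30.5 ± 3.15 CPM.

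Slc16a1 encodes MCT1, which carries lactate across the apical RPE membrane and is also made by many other cells. Levels in Bbs8+/+ replicates 1 to 4 were 419, 395, 449 and 381 CPM. Levels in Bbs8-/- replicates 1 to 4 were 446, 420, 396 and 501 CPM. Only Bbs8-/- replicate 4 exceeded the highest Bbs8+/+ library. The means of 411 ± 29.8 and 441 ± 45.4 CPM (SD, n = 4 each) differed by 0.10 on the log2 scale (SE 0.0639, 95% interval -0.02 to 0.23, edgeR FDR = 0.522). That difference was 0.03 without Bbs8-/- replicate 4 and 0.02 when scaled to the RPE markers. It was 0.16 without Bbs8-/- replicate 3 and 0.15 without Bbs8+/+ replicate 3, with no call. Slc16a1 (ENSMUSG00000032902, chr3:104638668-104658462, plus strand) had no counted neighbour within 2 kb.

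Bsg encodes basigin, the chaperone that brings MCT1 and MCT3 to the cell surface, and had the log2 difference nearest to 0 of the 9 genes. The 4 Bbs8+/+ libraries gave 794, 842, 828 and 839 CPM. The 4 Bbs8-/- libraries gave 828, 805, 852 and 849 CPM. The groups lay over each other, with a coefficient of variation of 2.66% in Bbs8+/+ against 2.62% in Bbs8-/-. Means of 826 ± 21.9 and 834 ± 21.8 CPM (SD, n = 4 each) gave a log2 difference of 0.01 (SE 0.0514, edgeR FDR = 0.954), with a 95% interval of 0.941 to 1.08 as a fold. The sign of this difference is not fixed, since it was -0.0018 without Bbs8+/+ replicate 1 and -0.07 when scaled to the RPE markers. Bsg (ENSMUSG00000023175) is at chr10:79704491-79711969 on the plus strand.

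The balance within the lactate group overlapped between the genotypes. Slc16a8 made up 49.1 ± 3.41% of the summed Slc16a1 and Slc16a8 counts in Bbs8+/+ against 49.7 ± 3.10% in Bbs8-/- (SD, n = 4 each). The lowest and highest shares were 45.2% and 53.5% in Bbs8+/+ against 45.3% and 52.4% in Bbs8-/-. Per count of the 2 carriers together there were 1.02 ± 0.0608 counts of Bsg in Bbs8+/+ against 0.955 ± 0.0738 in Bbs8-/-, and 2 Bbs8-/- libraries lay below all Bbs8+/+ libraries. These ratios are descriptions within a library and were not tested. They are not used to rank the genes by level.

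**Figure D2:**
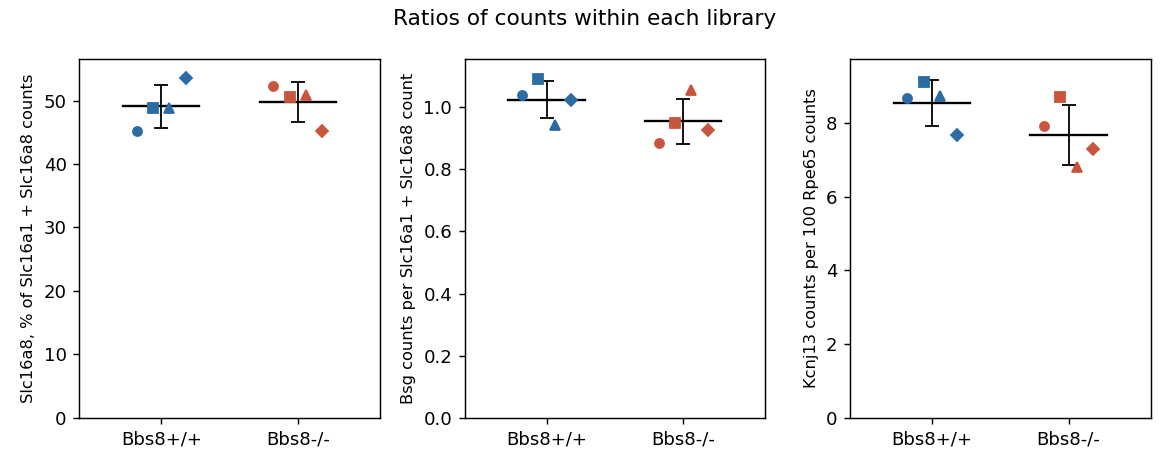
Ratios of counts within each library (vertical axes, each starting at 0) in Bbs8+/+ (blue) and Bbs8-/- (red), with a symbol for each replicate (circle, square, triangle and diamond for 1 to 4), a line at the mean and bars of 1 SD. The Slc16a8 share is 49.1% and 49.7% on average, and the Kcnj13 counts per 100 Rpe65 counts are 8.54 and 7.67.

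Atp1b1 encodes the beta 1 subunit of the sodium pump, which is needed to bring the catalytic subunit to the membrane. Bbs8+/+ replicates 1 to 4 held 498, 476, 485 and 417 CPM. Bbs8-/- replicates 1 to 4 held 453, 440, 421 and 470 CPM, all inside the Bbs8+/+ range. The mean was 469 ± 35.6 CPM in Bbs8+/+ against 446 ± 20.6 CPM in Bbs8-/- (SD, n = 4 each), with a log2 difference of -0.07 (SE 0.0613, 95% interval -0.19 to 0.05, edgeR FDR = 0.698). It was -0.04 without Bbs8+/+ replicate 1, -0.12 without Bbs8+/+ replicate 4 and -0.15 when scaled to the RPE markers, with no call. Atp1b1 (ENSMUSG00000026576, chr1:164437109-164458355, minus strand) shares 575 exonic bases with Nme7 of the opposite strand, which was read at 6.22 ± 1.17 and 6.37 ± 2.26 CPM.

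Slc12a2 encodes NKCC1, the sodium, potassium and chloride cotransporter that brings chloride into the RPE from the apical side. Bbs8+/+ libraries had 152, 173, 157 and 175 CPM. Bbs8-/- libraries had 167, 183, 164 and 172 CPM, of which replicate 2 was above the Bbs8+/+ range and the rest within it. The means of 164 ± 11.5 and 172 ± 8.45 CPM (SD, n = 4 each) differed by 0.06 on the log2 scale (SE 0.0840, 95% interval -0.11 to 0.23, edgeR FDR = 0.841). The difference was 0.03 without Bbs8+/+ replicate 1, 0.09 without Bbs8+/+ replicate 4 and -0.02 when scaled to the RPE markers. Slc12a2 (ENSMUSG00000024597) is at chr18:57878678-57946821 on the plus strand.

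Slc4a2 encodes AE2, a basolateral exchanger of chloride for bicarbonate. The Bbs8+/+ libraries were at 166, 157, 160 and 181.5 CPM. The Bbs8-/- libraries were at 181, 181, 178 and 177 CPM and varied far less, with a coefficient of variation of 1.06% against 6.55% in Bbs8+/+, a difference in spread that was not tested. Replicate 4 of Bbs8+/+ was the highest of the 8, and the other 3 Bbs8+/+ libraries were below every Bbs8-/- library. From 166 ± 10.9 to 179 ± 1.91 CPM (SD, n = 4 each), the log2 difference was 0.11 (SE 0.0827, 95% interval -0.06 to 0.27, edgeR FDR = 0.643). It was 0.16 without Bbs8+/+ replicate 4 and 0.03 when scaled to the RPE markers, with no call. Slc4a2 (ENSMUSG00000028962, chr5:24423837-24440950, plus strand) shares 1141 exonic bases with Fastk of the opposite strand, which was 24.3 ± 7.91 and 25.9 ± 3.56 CPM, and starts 306 bases from Cdk5, which was 27.2 ± 7.41 and 29.4 ± 7.02 CPM.

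**Figure D3:**
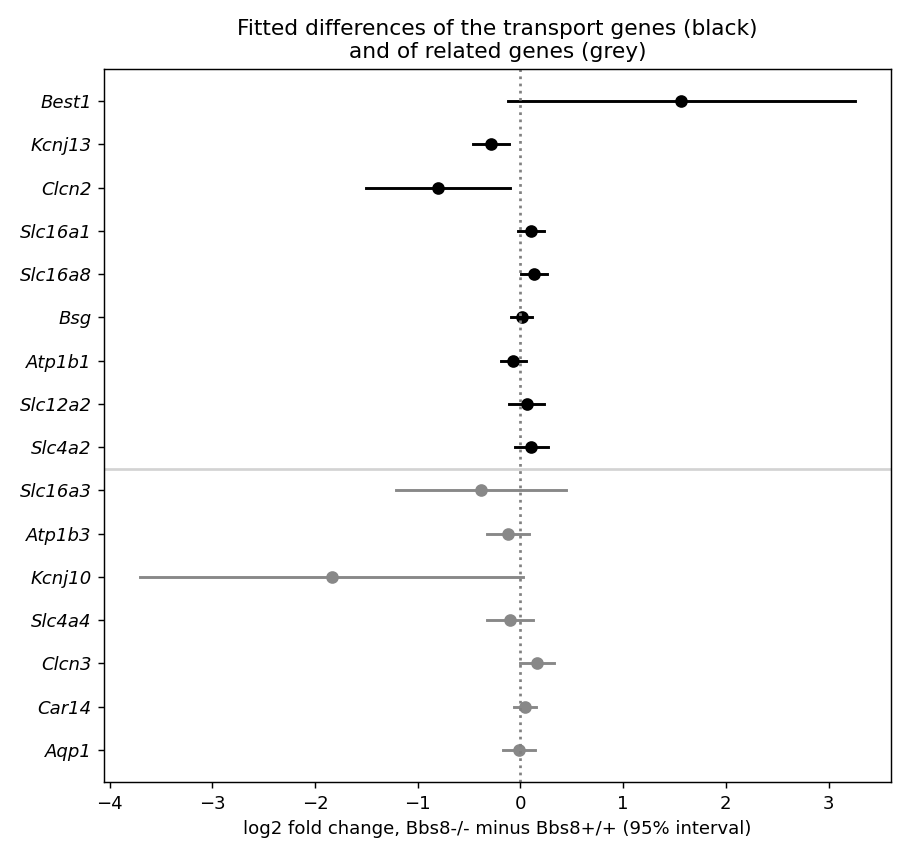
Fitted log2 difference, Bbs8-/- minus Bbs8+/+, with its 95% interval (horizontal axis) for the 9 transport genes (black) and for 7 related genes (grey). The intervals of Kcnj13, Clcn2 and Slc16a8 exclude 0 before adjustment for the number of genes tested, and those of Best1 (-0.12 to 3.26) and Kcnj10 are the widest.

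The wider transport machinery was examined with 91 related genes, of which 77 were tested. None rose or fell at FDR 0.05 in the edgeR quasi-likelihood test, its likelihood ratio test or DESeq2, and 5 of the 77 had an unadjusted p under 0.05, against 13.0% of all genes. Scaled to the RPE markers, 1 was called, Stk39. The ranges of the genotypes were separate for 5 of the 77, against 7.38% of all genes, with Fxyd1, Fxyd2, Kcnj10 and Stk39 among them. Kcnj10 passed the filter only through the Bbs8+/+ libraries, in which it was higher, so nothing is drawn from its range. The log2 difference was above 0 for 37, and its median was -0.02. By list the median ran from -0.11 in 11 potassium channels and -0.10 in 10 sodium pump and FXYD genes, through -0.08 in 10 cation-chloride cotransporters and their kinases and -0.02 in both 11 chloride channels and 5 genes of glucose, lactate and pyruvate handling, to 0.02 in both 10 monocarboxylate carriers and chaperones and 17 genes of bicarbonate and proton handling and 0.03 in 3 water channels.

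The gene with the smallest p of all these was Stk39, a kinase that activates NKCC1. It stood at 178, 160, 169 and 161 CPM in Bbs8+/+ replicates 1 to 4, and the Bbs8-/- libraries had 150, 133, 139 and 156 CPM. All 4 Bbs8-/- libraries were below all 4 Bbs8+/+ libraries, with a log2 difference of -0.21 that did not pass the test (SE 0.0867, edgeR FDR = 0.252). Fxyd2, a regulatory subunit of the sodium pump, was 7.90 ± 2.88 CPM in Bbs8+/+ against 4.22 ± 0.717 CPM in Bbs8-/- (log2 difference -0.90, FDR = 0.325). It did not pass the test either, and the same holds for the genes of smallest p in the other lists. Slc4a7, a sodium and bicarbonate cotransporter, differed by 0.34 on the log2 scale (FDR = 0.276). Clcn3, a chloride and proton exchanger of vesicles, differed by 0.16 (FDR = 0.406), Slc2a1, the glucose transporter GLUT1, by -0.07 (FDR = 0.775) and the water channel gene Aqp11 by 0.44 (FDR = 0.590), all from edgeR.

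The closest partners and relatives of the members were read at levels that allow some of them to be compared closely. Car14, a membrane carbonic anhydrase of the RPE, was 662 ± 40.2 CPM in Bbs8+/+ against 684 ± 16.4 CPM in Bbs8-/- (log2 difference 0.05, 95% interval -0.06 to 0.16). Aqp1, a water channel, was 194 ± 14.5 and 192 ± 10.1 CPM (log2 difference -0.01, 95% interval -0.17 to 0.15). Atp1b3, another beta subunit of the sodium pump, was 104 ± 10.1 and 95.7 ± 6.80 CPM (log2 difference -0.12). Slc4a4, the sodium and bicarbonate cotransporter NBCe1, was 87.0 ± 2.34 and 80.8 ± 9.50 CPM (log2 difference -0.10). Near the limit of detection lay Slc16a3, the lactate carrier MCT4, at 6.50 ± 1.06 and 5.07 ± 2.00 CPM, and Kcnj10, the potassium channel Kir4.1, at no more than 2.58 CPM in any library. Best2, the closest listed relative of Best1, had 2 counts in all and was not tested.

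**Figure D4:**
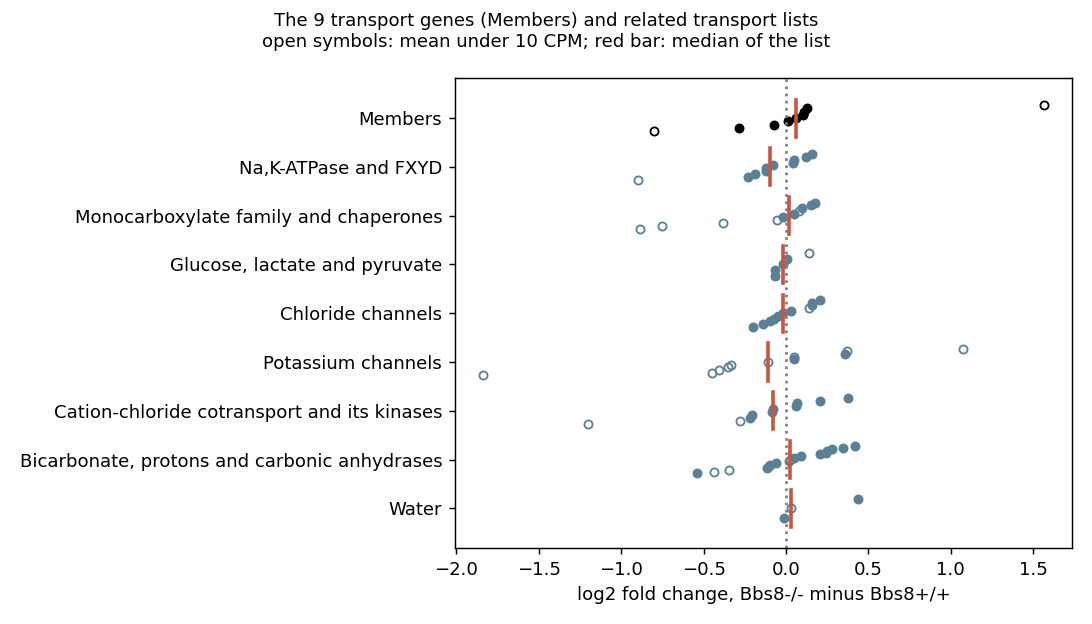
Log2 difference, Bbs8-/- minus Bbs8+/+ (horizontal axis), of the 9 transport genes (black, labelled Members) and of the 77 tested related genes in 8 lists (blue), with open symbols for genes under 10 CPM on average and a red bar at the median of each list. The medians lie between -0.11 and 0.06 (the latter for the 9 genes with Best1 included), and the points farthest from 0, Best1 and Kcnj10 among them, are open symbols.

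For the member with the most CPM in each of the 3 roles, a choice by counts alone, the genes with the most similar course over the 8 libraries were found by the root mean square difference of log2(CPM + 1) after centring on each gene's mean, among 9034 genes of at least 10 CPM. For Kcnj13 these were Ammecr1l (0.0696), Cdc42bpa (0.0798) and Podxl (0.0799), with log2 differences of -0.31, -0.22 and -0.31. The choice by likeness over both genotypes fixes that these lie near the difference of Kcnj13, and none passed the edgeR test. For Bsg they were Baz1b (0.0308), Arid4b (0.0339) and Timp3 (0.0355), with log2 differences of 0.01, 0.05 and -0.02. For Atp1b1 they were Atp5g1 (0.0374), Wasf2 (0.0424) and 2810004N23Rik (0.0448). The distances are descriptions over 8 libraries and were not tested.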

How the data were processed

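Total RNA of 8 P11 RPE eyecup samples, 4 per genotype by the labels, was sequenced by the authors as QuantSeq 3′ mRNA libraries, which read transcript 3′ ends. The authors trimmed the reads with BBDuk, aligned them with STAR to mm10 and counted them with htseq-count, and they deposited 1 file per library with the raw count of uniquely aligned reads for each gene. Total gene counts were 1636725 to 2884983. No molecular identifiers were named, so the floor of 3 counts covers counting error only. The filter that the study set on reads with several alignments needs other data and was not applied.

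Symbols and positions came from GENCODE M21 (mm10), which held 31011 of the 31053 gene identifiers, and members were matched by symbol. The filter kept genes that reached 1 CPM in 4 or more libraries. These 13813 genes were normalized by TMM and entered the two-sided quasi-likelihood test of edgeR 4.0.16 (R 4.3.3) with a single factor for genotype, and p-values were adjusted over all of them by Benjamini-Hochberg (FDR 0.05). CPM values are TMM-normalized. The script was tested on simulated data. No 2 libraries held identical values, and pairs of 1 genotype differed by more than counting noise.

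The rule for the members uses no measured value, but the members and lists were chosen with earlier results of these data known. Named were the 9 members, Ttc8, genes past FDR 0.05 or else of smallest p in each related list, the direct relatives, called markers, genes overlapping or near a member, and the 3 genes of most similar course per role. Some genes that met this rule are not reported here. Alternatives were RLE size factors, library totals, filterByExpr, no filter, a likelihood ratio test, DESeq2 1.42.0, a replicate block, counts thinned to the smallest total, removal of Gm42418 and of mitochondrial genes, leaving out each library, and, chosen after seeing the data, scaling to the 12 RPE markers.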

Additional observations from a re-analysis of the deposited data

Results flagged for a closer look

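Each group of 4 libraries was searched for a highest or lowest library far from the other 3 (Dixon's test at the 95% level), which chance meets in about 1 in 20 groups. Of 80 groups searched 3 met it, where 4.0 are expected by chance, and none concerned a member. Atp1b3, the beta 3 subunit of the sodium pump, was 88.75 CPM in Bbs8+/+ replicate 1 and 108.8 to 108.9 CPM in the other 3. Slc4a4, which encodes NBCe1, was 90.43 CPM in Bbs8+/+ replicate 2 and 85.46 to 86.21 CPM in the other 3. The summed lens markers were 314.7 CPM in Bbs8-/- replicate 4 and 333.6 to 335.7 CPM in the other 3.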

How the results depend on the processing

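The log2 differences of Kcnj13, Clcn2, Slc16a1, Slc16a8, Atp1b1 and Slc4a2 kept their sign under the 18 alternatives, and of the members Kcnj13 alone was called, under 2 alternatives. Members called lower numbered 0 to 1 when each library was left out, with 1 without Bbs8-/- replicate 2, and 1 when scaled to the RPE markers, a scaling chosen after seeing the data that also gave 89 genes higher and 337 lower. Genes called lower ranged from 101 (without Bbs8-/- replicate 1) to 150 when each library was left out, and genes called higher from 114 to 172. The difference of Bsg ran from -0.0018 (without Bbs8+/+ replicate 1, its sign reversed) to 0.033 over the libraries left out, and it reversed to -0.065 with the RPE marker scaling, as did that of Slc12a2, to -0.019. For these changes the cause was not tested. Ttc8 stayed lower and called throughout. A fit that took the replicate number as a block called 134 genes higher and 129 lower, 0 members were called and Kcnj13 differed by -0.29 (FDR = 0.0801, edgeR). Same-numbered libraries did not deviate together (correlations of deviations 0.0197, 0.0034, -0.050 and -0.056 over 6626 genes), so the numbers were not taken to pair the samples. Best1 was not tested under filterByExpr, and DESeq2 gave it no adjusted p. Depth limits Best1, with 25 counts, and Clcn2, with 152, more than the other members.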
